A study of Mus musculus with 6 samples.

Results

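The genes described here are 36 genes of G2 phase and mitosis, taken by symbol from a fixed list and found, all 36 of them, among the 24493 genes of a bulk RNA sequencing table from mouse pancreatic tumor cells. Of the 6 libraries, 2 came from tumors given a combination called GAFCP and 4 from control tumors. Every library was of tumor cells sorted from tumors implanted under the skin, on the C57BL/6 strain, and all titles carry the same cell name, 6419c5, so that the comparison rests on a single tumor line. GAFCP is described in the labels as abraxane and gemcitabine with an agonist of CD40 and blockade of CTLA-4 and PD-1, and the control libraries are labelled only as control. The sources used here give no doses, times after treatment, sorting gate or number of mice. Nothing in the labels says that libraries of a group came from different tumors, so the p-values cover only the spread among these libraries, and that spread may be technical.

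A cell that has copied its DNA passes from G2 into mitosis when the kinase CDK1 is switched on by B-type cyclins. Mitotic kinases and kinesins then build the spindle, the spindle checkpoint holds the cell until every kinetochore is attached, and the anaphase-promoting complex (APC/C) with its activator Cdc20 marks cyclin B and securin for destruction so that sister chromatids part. Most of these genes are transcribed in a wave late in the cell cycle and are silenced in resting cells, which is why they are read as proliferation genes in tumors. Of the drugs in the combination, gemcitabine is a nucleoside analog that stops DNA copying in S phase, and abraxane delivers paclitaxel, a drug that freezes the microtubules of the spindle.

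Late cell cycle transcription runs in part through short promoter elements, the cell cycle homology region (TTTGAA, or its variant TTTAAA), which the MuvB complex binds, and the CCAAT box, which NF-Y binds. Promoter windows of 300 bases (250 before and 50 after the annotated start, RefSeq, GRCm38.p6) were matched for 30 of the 36 genes and for 27025 genes in all. A gene with several windows was counted if any of them held the motif. Searched on both strands, TTTGAA was present for 22 of the 30 genes (73.3%), against 20.2% of all genes. CCAAT was present for 24 of 30 (80.0%), against 41.1% of all genes. TTTAAA was present in 9 of 30 (30.0%), against 14.9% of all genes. Both TTTGAA and CCAAT were found for 20 of the 30 genes (66.7%), against 8.97% of all genes. The motifs were present in windows of genes that were higher and of genes that were lower with GAFCP. TTTGAA was found for 8 of 9 matched genes called higher, 5 of 5 called lower and 9 of 16 not called. A match describes letters in a window and not a bound site. The 100 bases before the start, from base -100 to base -1, are shown for the 2 genes with the largest increase in the list, Top2a and Cdk1, and for 2 genes that fell, Ccnb2 and Cdc20. They are written 5′ to 3′ on the strand of the gene, with TTTGAA and CCAAT in capitals, or TTCAAA and ATTGG where the motif lies on the opposite strand. For Top2a the start in the promoter table lies inside the annotated gene span given below, so that the first bases of that span fall in the stretch shown.

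Top2a, chr11:99024190-99024289, minus strand: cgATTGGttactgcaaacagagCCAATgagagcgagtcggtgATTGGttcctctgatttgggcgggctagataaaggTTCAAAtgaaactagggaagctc
Cdk1, chr10:69352913-69353012, minus strand: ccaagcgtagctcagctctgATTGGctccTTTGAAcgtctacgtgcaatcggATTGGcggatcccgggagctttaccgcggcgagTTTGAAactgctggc
Ccnb2, chr9:70421555-70421654, minus strand: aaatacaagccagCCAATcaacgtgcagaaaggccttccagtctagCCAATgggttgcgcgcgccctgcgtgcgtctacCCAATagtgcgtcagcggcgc
Cdc20, chr4:118437344-118437443, minus strand: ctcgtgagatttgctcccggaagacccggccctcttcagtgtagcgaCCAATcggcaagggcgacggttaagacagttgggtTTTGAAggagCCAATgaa

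These stretches hold 3 CCAAT boxes for Top2a, 2 for Cdk1, 3 for Ccnb2 and 2 for Cdc20. TTTGAA begins at base -18 in Cdc20, at bases -71 and -15 in Cdk1 and, on the opposite strand, at base -23 in Top2a. In Ccnb2 it begins at base 5, just after the start, and at base -167, both outside the stretch shown.

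The G2 and mitosis genes did not move as a block. With GAFCP 11 of the 36 rose, 6 fell and 19 did not pass the test (limma on log2(TPM + 1), Benjamini-Hochberg adjusted p under 0.05 over all 13720 genes tested, here written as called). TPM is estimated abundance per transcript length, set to an equal total in every library. The 17 called genes are 47.2% of the list, where 47.5% of all genes tested were called, so that the number of called genes is that of the background. By direction, 30.6% of the list was higher where 19.0% of all genes were, and 16.7% was lower where 28.5% of all genes were. The changes were small. Top2a and Cdk1 alone were called with a change of at least 1.5-fold, which is 5.56% of the list, where 15.9% of all genes tested reached it. The GAFCP and control libraries did not overlap for 25 of the 36 (18 higher and 7 lower, 69.4%), where 61.6% of all genes did not overlap. The median log2 change was 0.09 over the list and -0.07 over all genes tested.

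The split depended on scaling. With median-of-ratios scaling, which sets each library by its middle genes, 18 of the list were higher and 5 lower, while over all genes 3460 were higher and 3424 lower, in place of 2606 and 3909. Cenpa was no longer called, and the 7 genes added were Ccna2, Ccnb1, Aurka, Bub1, Mad2l1, Nuf2 and Mki67, with log2 changes between 0.12 (Ccna2) and 0.27 (Mki67). The list's median log2 change was then 0.16 and that of all genes -0.01. Summed over the 36 genes, expression was 993.3 and 1009 TPM in the GAFCP libraries, against 920.6, 953.3, 888.3 and 931.0 TPM in controls, which is 1.08 times as high in the mean. Every GAFCP sum was above every control sum, by less than the range among controls in the nearest pair.

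**Figure D1:**
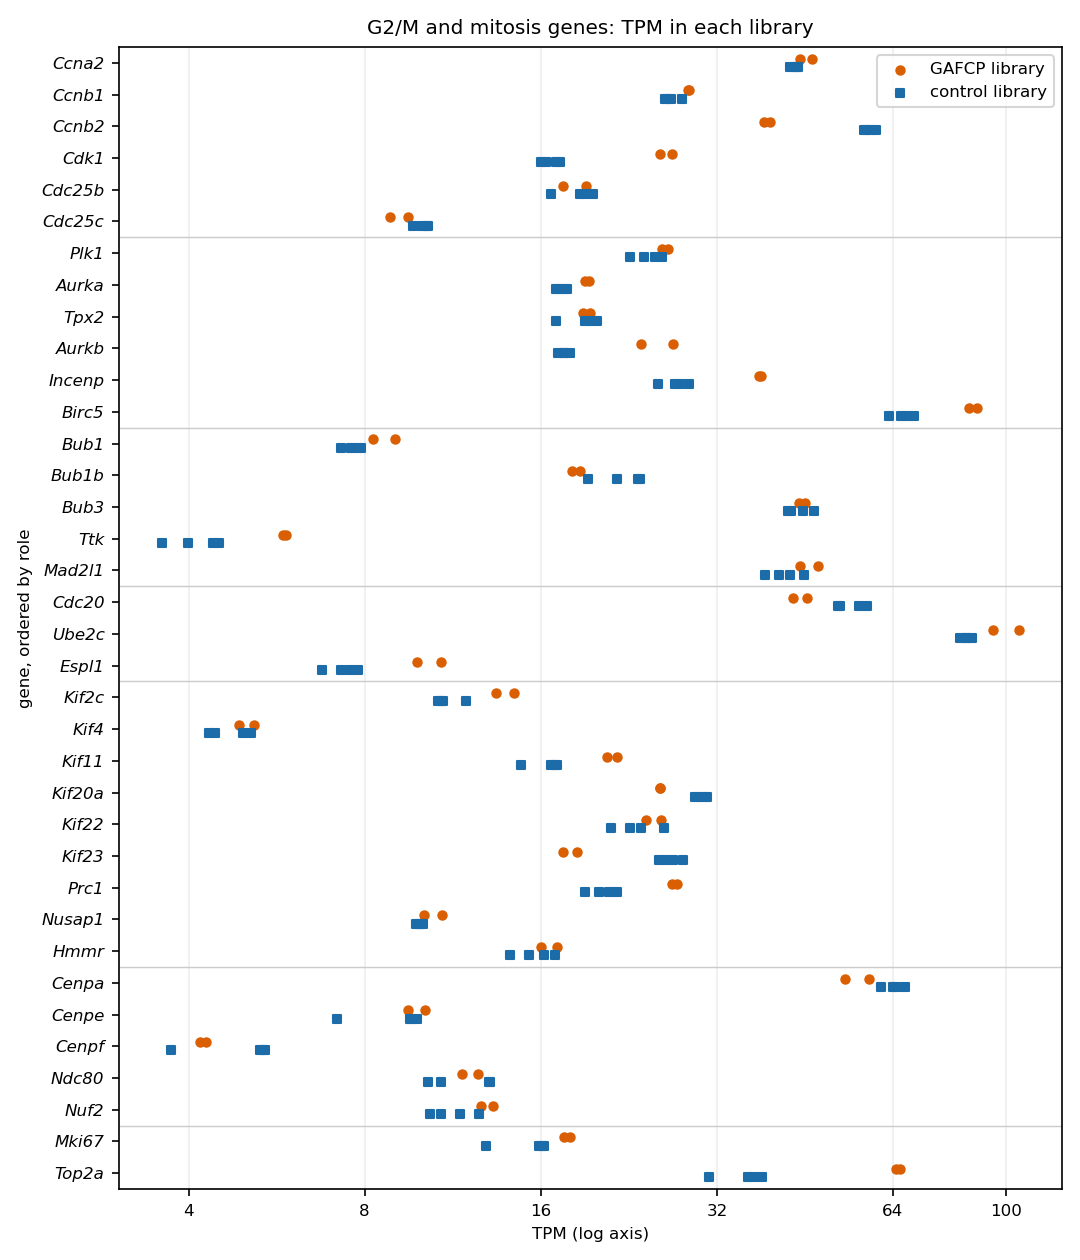
TPM (log axis) of the 36 genes in each library, ordered by role from CDK1 and its cyclins at the top to chromosome proteins at the bottom. Orange circles are the 2 GAFCP libraries and blue squares the 4 control libraries. For Top2a, Cdk1 and Incenp the circles lie to the right of all squares, and for Ccnb2 and Kif23 to the left.

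**Figure D2:**
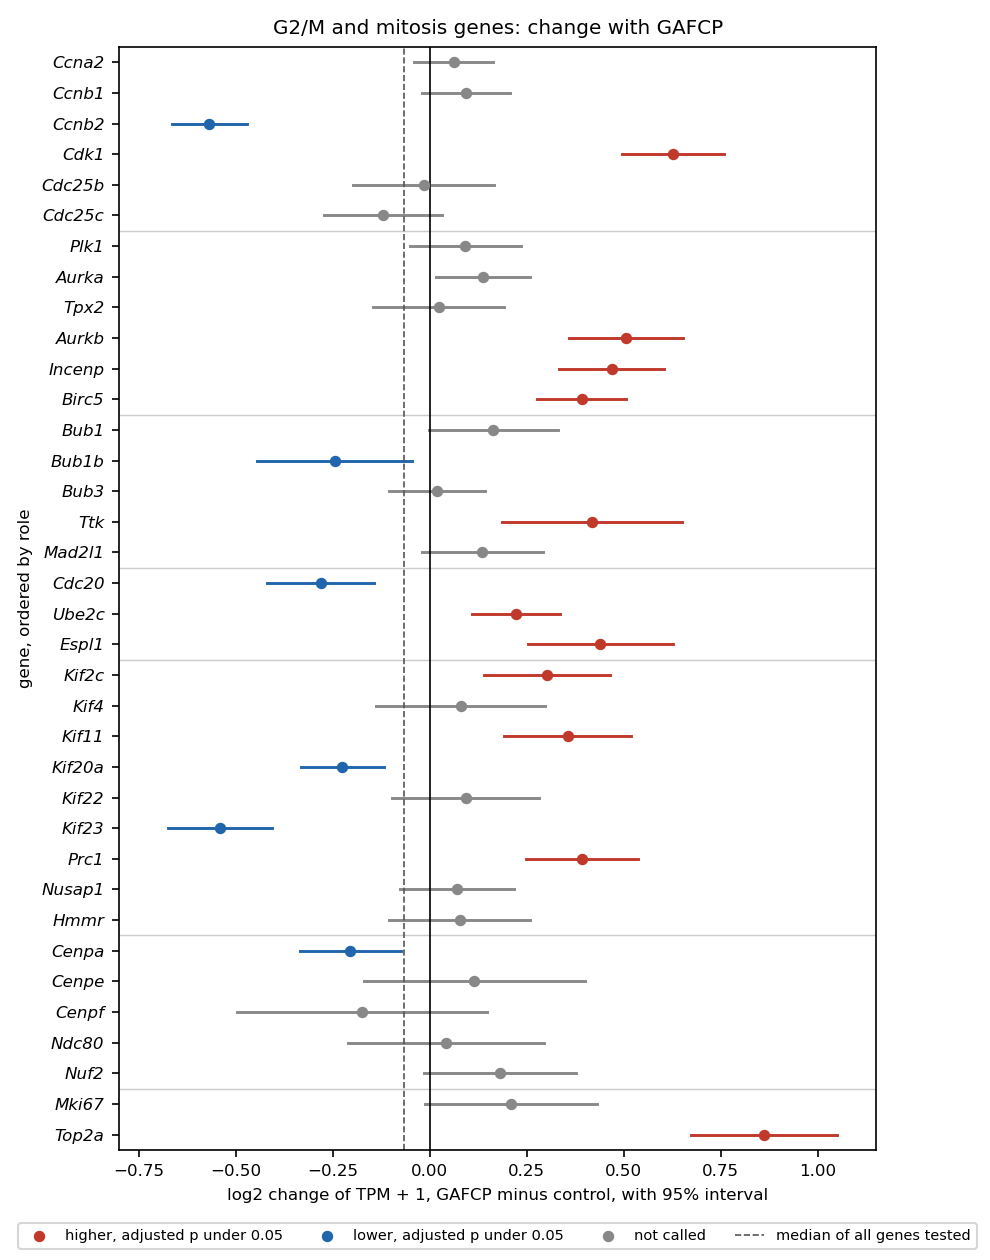
Log2 change of TPM + 1 (GAFCP minus control) of the same 36 genes with its 95% interval from limma. Red marks the 11 genes called higher, blue the 6 called lower and grey the 19 not called, and the dashed line is the median of all genes tested (-0.07).

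Among CDK1, its cyclins and phosphatases, Cdk1 rose, Ccnb2 fell and the other 4 genes were not called. The called share was 33.3%, where 47.5% of all genes tested were called. Cdk1, the kinase that starts mitosis, had 26.8 and 25.6 TPM in the GAFCP libraries, against 17.0, 17.3, 16.3 and 16.03 TPM in controls, or 0.63 ± 0.06 higher on the log2 scale (SE, limma adjusted p = 7.2e-05). Ccnb2, the B-type cyclin found at the Golgi, had 39.5 and 38.6 TPM with GAFCP, against 57.0, 58.6, 57.8 and 59.9 TPM in controls, with a change of -0.57 ± 0.04 on the log2 scale (SE, limma adjusted p = 2.3e-05). Neither gene had overlapping groups, and in each the gap between groups exceeded the range within either group. Ccnb1, the other main B-type cyclin and the one needed for mitotic entry, had 28.7 and 28.6 TPM with GAFCP, against 27.9, 26.4, 26.1 and 26.7 TPM in controls. Its log2 change of 0.09 (95% interval -0.02 to 0.21) did not pass (limma adjusted p = 0.156).

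The ratio of Ccnb2 to Ccnb1, which library scaling cannot alter, was 1.38 and 1.35 with GAFCP, against 2.05, 2.22, 2.21 and 2.24 in controls. The ratio of Cdk1 to Ccnb2 was 0.680 and 0.665 with GAFCP, against 0.298, 0.295, 0.282 and 0.267 in controls. These ratios were chosen after the values were seen and were not tested. Ccna2, the cyclin of S phase and G2, averaged 45.5 ± 1.62 TPM (SD, n = 2) with GAFCP and 43.5 ± 0.597 TPM (SD, n = 4) in controls, with a log2 change of 0.06 (95% interval -0.04 to 0.16). The phosphatases that remove the inhibitory phosphates from CDK1 were not called. Cdc25b averaged 18.3 ± 1.17 TPM with GAFCP and 18.5 ± 1.30 TPM in controls (SD), and Cdc25c averaged 9.16 ± 0.445 TPM with GAFCP and 10.0 ± 0.269 TPM in controls (SD). For Cdc25c the groups did not overlap, with both GAFCP libraries below the lowest control.

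The 3 chromosomal passenger genes in the list rose together. The passenger complex corrects faulty attachments of chromosomes to the spindle and later acts in cytokinesis, and 3 of its genes are in the list. Aurkb, its kinase, had 23.7 and 26.9 TPM with GAFCP, against 17.4, 18.0, 17.1 and 17.5 TPM in controls (log2 change 0.51 ± 0.06, SE, limma adjusted p = 4.2e-04). Incenp, the scaffold that activates the kinase, had 37.8 and 38.1 TPM with GAFCP, against 28.6, 27.6, 25.3 and 27.1 TPM in controls (log2 change 0.47 ± 0.06, SE, limma adjusted p = 3.8e-04). Birc5, which encodes survivin, the subunit that docks the complex to the centromere, had 89.0 and 86.4 TPM with GAFCP, against 63.0, 69.6, 67.9 and 66.1 TPM in controls (log2 change 0.39 ± 0.05, SE, limma adjusted p = 4.1e-04). In all 3 the lowest GAFCP library was well above the highest control, and the calls held in every alternative run. Cdca8, which encodes borealin, the remaining core subunit, was not called and is among the other G2/M genes below.

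The spindle pole kinases in the list were not called. Aurka, the kinase of the spindle poles, had 19.1 and 19.3 TPM with GAFCP, against 17.1, 17.8, 17.6 and 17.0 TPM in controls. Its groups did not overlap, and its log2 change of 0.14 (95% interval 0.02 to 0.26) missed the threshold after adjustment (limma adjusted p = 0.061), which it passed without control library 3 (limma adjusted p = 0.033). Tpx2, the microtubule protein that activates it, averaged 19.2 ± 0.340 TPM with GAFCP and 18.9 ± 1.31 TPM in controls (SD). Plk1, a kinase that acts from mitotic entry to cytokinesis, averaged 26.1 ± 0.450 TPM with GAFCP and 24.4 ± 1.34 TPM in controls (SD), with groups that overlapped. The ratio of Aurkb to Aurka was 1.24 and 1.39 with GAFCP, against 1.02, 1.01, 0.976 and 1.03 in controls, where the genes were near parity.

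Spindle checkpoint genes were split. Ttk, the kinase MPS1 that recruits the checkpoint to kinetochores, had 5.80 and 5.87 TPM with GAFCP, against 3.997, 4.51, 4.41 and 3.60 TPM in controls (log2 change 0.42 ± 0.10, SE, limma adjusted p = 0.0105). Bub1b, which encodes BUBR1, a subunit of the complex that blocks the APC/C, had 18.1 and 18.7 TPM with GAFCP, against 23.5, 23.7, 19.3 and 21.6 TPM in controls (log2 change -0.24 ± 0.09, SE, limma adjusted p = 0.0474). The groups did not overlap in either gene, but for Bub1b control library 3 lay closer to the GAFCP libraries than to the highest controls. The Ttk call was lost without GAFCP library 1 (limma adjusted p = 0.0644) and without GAFCP library 2 (0.0707). The Bub1b call was lost without GAFCP library 1 (limma adjusted p = 0.202), without GAFCP library 2 (0.134), and without control library 1 (0.0946), 2 (0.0905) or 4 (0.0787). Against control libraries 3 and 4 alone its log2 change was -0.15 (limma adjusted p = 0.214).

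Bub1, a kinase that marks the centromere for the passenger complex, averaged 8.65 ± 0.512 TPM with GAFCP and 7.61 ± 0.238 TPM in controls (SD), without overlap and without passing the test (limma adjusted p = 0.0967). Bub3, the partner that brings BUB1 and BUBR1 to kinetochores, averaged 44.8 ± 0.801 TPM with GAFCP and 44.2 ± 2.07 TPM in controls (SD), with a log2 change of 0.02 (95% interval -0.11 to 0.14). Mad2l1, which encodes MAD2, the protein that captures Cdc20, averaged 46.1 ± 2.29 TPM with GAFCP and 41.9 ± 2.74 TPM in controls (SD), and its groups overlapped.

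At the exit from mitosis all 3 genes of the list were called, where 47.5% of all genes tested were called. Cdc20, the APC/C activator that the checkpoint holds back, fell to 43.2 and 45.7 TPM in the GAFCP libraries, against 52.0, 57.7, 51.5 and 55.9 TPM in controls (log2 change -0.28 ± 0.06, SE, limma adjusted p = 0.00603). Ube2c, the ubiquitin-conjugating enzyme of the APC/C and the most abundant gene of the list, had 94.8 and 105.2 TPM with GAFCP, against 85.8, 83.4, 85.3 and 87.4 TPM in controls (log2 change 0.22 ± 0.05, SE, limma adjusted p = 0.00729). Espl1, which encodes separase, the protease that opens cohesin, had 10.8 and 9.85 TPM with GAFCP, against 7.30, 7.54, 6.77 and 7.81 TPM in controls (log2 change 0.44 ± 0.08, SE, limma adjusted p = 0.00293). None of the 3 had overlapping groups, where 61.6% of all genes tested did not overlap. The Cdc20 call was lost without GAFCP library 1 (limma adjusted p = 0.0621). The Ube2c call was lost without GAFCP library 2 (limma adjusted p = 0.0866) and with the replicate number as a block (0.0505).

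Among the 9 kinesin and spindle genes 3 rose and 2 fell (55.6% called, where 47.5% of all genes tested were called). Kif11, the kinesin that pushes spindle poles apart, had 20.8 and 21.6 TPM with GAFCP, against 16.9, 17.1, 14.8 and 16.7 TPM in controls (log2 change 0.36 ± 0.07, SE, limma adjusted p = 0.00433). Kif2c, a kinesin that takes microtubules apart at centromeres, had 14.4 and 13.4 TPM with GAFCP, against 10.9, 10.7, 10.8 and 11.9 TPM in controls (log2 change 0.30 ± 0.07, SE, limma adjusted p = 0.00879). The Kif2c call was lost without GAFCP library 1 (limma adjusted p = 0.0893) and against control libraries 3 and 4 alone (0.0587).

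Genes of the spindle midzone, where the cell divides, went opposite ways. Prc1, which bundles the antiparallel microtubules of the midzone, had 26.8 and 27.4 TPM with GAFCP, against 20.9, 21.6, 19.0 and 20.2 TPM in controls (log2 change 0.39 ± 0.06, SE, limma adjusted p = 0.00139). Kif23, the kinesin of the centralspindlin complex, fell to 18.5 and 17.5 TPM in GAFCP libraries, against 26.1, 27.96, 25.5 and 26.9 TPM in controls (log2 change -0.54 ± 0.06, SE, limma adjusted p = 1.7e-04). Kif20a, a kinesin that carries the passenger complex to the midzone, fell to 25.6 TPM in each GAFCP library, against 30.8, 29.7, 29.4 and 30.4 TPM in controls (log2 change -0.22 ± 0.05, SE, limma adjusted p = 0.00516). The groups lay apart in all 3. The ratio of Kif23 to Prc1 was 0.689 and 0.640 with GAFCP, against 1.25, 1.30, 1.34 and 1.34 in controls. Prc1 was the more abundant in both GAFCP libraries and Kif23 in every control.

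The other spindle genes were not called. Kif4, a chromosome-bound kinesin that also acts at the midzone, averaged 5.03 ± 0.210 TPM with GAFCP and 4.71 ± 0.385 TPM in controls (SD). Kif22, a kinesin that pushes chromosome arms outward, averaged 24.96 ± 1.004 TPM with GAFCP and 23.4 ± 2.04 TPM in controls (SD). Hmmr, which helps assemble spindle poles, averaged 16.5 ± 0.737 TPM with GAFCP and 15.6 ± 1.19 TPM in controls (SD). In these 3 the groups overlapped. Nusap1, a microtubule-bundling protein, averaged 10.5 ± 0.549 TPM with GAFCP and 9.93 ± 0.123 TPM in controls (SD), without overlap, as GAFCP library 2 (10.09 TPM) lay just above control library 4 (10.07 TPM).

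**Figure D3:**
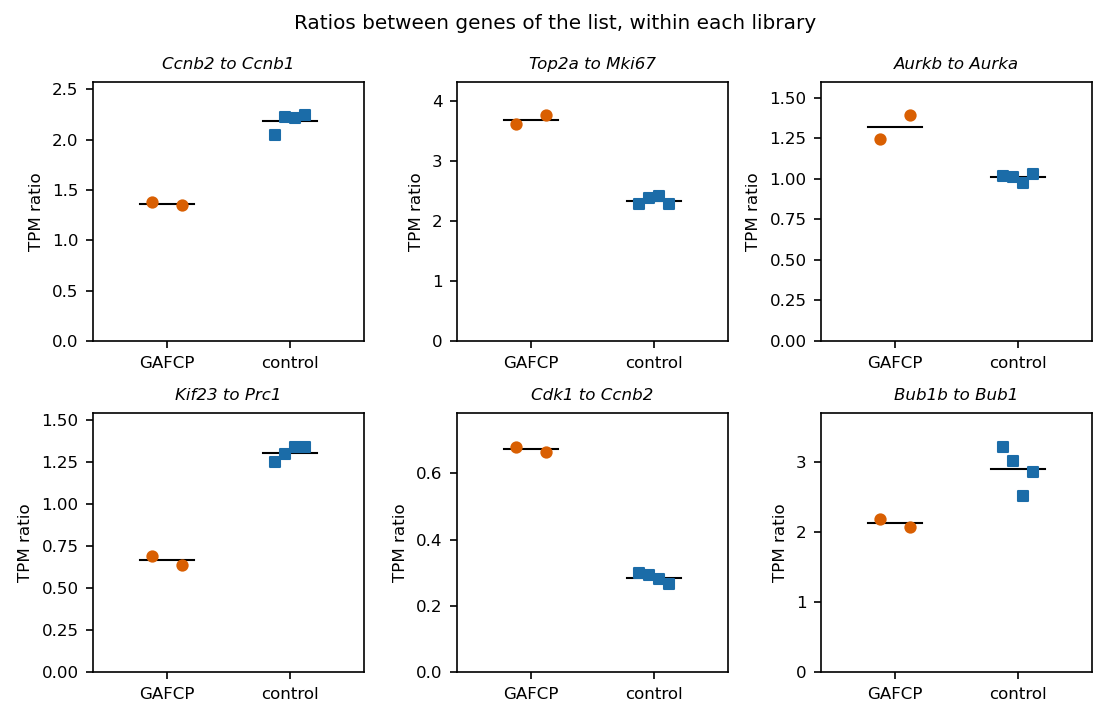
Ratio of TPM between 6 pairs of genes of the list within each library, on axes that start at 0. Orange circles are GAFCP libraries, blue squares controls and black lines the means, which for Ccnb2 to Ccnb1 are 1.36 with GAFCP and 2.18 in controls and for Kif23 to Prc1 are 0.664 with GAFCP and 1.30 in controls.

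Of 5 centromere and kinetochore genes 1 was called. Cenpa, the histone H3 variant that marks the centromere, had 58.3 and 53.0 TPM with GAFCP, against 61.0, 63.97, 67.1 and 64.8 TPM in controls (log2 change -0.20 ± 0.06, SE, limma adjusted p = 0.0185). The Cenpa call was lost without GAFCP library 2 (limma adjusted p = 0.177), with median-of-ratios scaling (0.151), with the replicate number as a block (0.122) and against control libraries 1 and 2 alone (0.0761). Ndc80 and Nuf2 form the microtubule-binding arm of the kinetochore. Ndc80 averaged 12.1 ± 0.541 TPM with GAFCP and 11.8 ± 1.48 TPM in controls (SD), and Nuf2 averaged 12.97 ± 0.432 TPM with GAFCP and 11.3 ± 0.974 TPM in controls (SD, limma adjusted p = 0.113).

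Cenpe, the kinesin that carries chromosomes to the spindle equator, had 9.50 and 10.1 TPM with GAFCP, against 9.85, 9.55, 7.17 and 9.62 TPM in controls. Cenpf, a large protein of the outer kinetochore, had 4.28 and 4.18 TPM with GAFCP, against 5.41, 5.35, 3.73 and 5.30 TPM in controls. In each gene control library 3 was the lowest library of all, and for Cenpf the other controls lay above both GAFCP libraries. Without it the Cenpf log2 change of -0.17 became -0.28 and passed (limma adjusted p = 0.0139).

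The gene with the largest change was Top2a, which encodes the topoisomerase that untangles sister chromatids and is made from S phase into mitosis. Top2a (chromosome 11, 98992947 to 99024199, mm10) had 64.7 and 65.9 TPM with GAFCP, against 37.0, 38.3, 31.0 and 36.2 TPM in controls, or 0.86 ± 0.08 higher on the log2 scale (SE, limma adjusted p = 8.8e-05), or 1.83 times the control mean. The lower GAFCP library was far above the highest control. Mki67, which encodes the proliferation antigen Ki-67, a coat of mitotic chromosomes, had 18.0 and 17.5 TPM with GAFCP, against 16.2, 16.1, 12.9 and 15.9 TPM in controls. Its log2 change of 0.21 (95% interval -0.01 to 0.43) did not pass (limma adjusted p = 0.107), though both GAFCP libraries were above every control and it passed without control library 3 (log2 change 0.14, limma adjusted p = 0.0341). The ratio of Top2a to Mki67 was 3.60 and 3.75 with GAFCP, against 2.28, 2.38, 2.40 and 2.28 in controls.

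For the 19 genes not called, the estimates lay between -0.17 and 0.21 on the log2 scale, 16 of them above 0. Their 95% intervals reached from -0.50 at the lowest to 0.43 at the highest, and missing the threshold does not show that a gene kept its level. Within the controls the coefficient of variation of TPM had a median of 5.44% over the list, from 1.24% for Nusap1 to 16.4% for Cenpf. Control library 3 was the lowest control for 23 of the 36 genes and control library 2 the highest for 19. The same count was not made over all genes, so it is not shown to be particular to the list. The median log2 change of all genes tested was -0.09 without control library 3 and -0.05 without control library 2, in place of -0.07.

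The wider cell cycle program was read from lists that share no gene with the 36. Among 31 other G2/M genes 6 were higher and 4 lower, with a median log2 change of 0.02. That is 32.3% called, where 47.5% of all genes tested were called. Anln, which encodes anillin of the cleavage furrow, rose to 35.6 and 34.9 TPM with GAFCP, against 25.6, 26.1, 22.9 and 24.1 TPM in controls, and Cks2, a CDK1 subunit, rose by 0.33 on the log2 scale. Hmgb2, a chromatin protein, rose by 0.28, and Tubb4b, a beta-tubulin, changed by -0.38 (limma adjusted p = 1.0e-04). Cdca8 had 35.4 and 31.3 TPM with GAFCP, against 29.8, 29.1, 26.9 and 30.3 TPM in controls, and did not pass (limma adjusted p = 0.055).

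Of 43 S phase genes 28 were higher and 2 lower, with a median log2 change of 0.27. Higher genes made up 65.1% of this list, where 19.0% of all genes tested were higher. Lower genes made up 4.65%, where 28.5% of all genes tested were lower. The difference between this list and the G2 and mitosis genes was not tested. Rrm2, the small subunit of ribonucleotide reductase, the enzyme that gemcitabine diphosphate inhibits, had 116.4 and 109.4 TPM with GAFCP, against 72.8, 71.8, 71.9 and 71.6 TPM in controls (log2 change 0.64 ± 0.04, SE, limma adjusted p = 9.1e-06). The replication genes Cdc45, Mcm5 and Uhrf1 rose by 0.78, 0.64 and 0.47 on the log2 scale.

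In the main fit, lists for mitotic entry, exit and chromosome condensation held no larger share of called genes than all genes tested (47.5%). Of 9 genes that control CDK1 activity 3 were higher and 1 lower (44.4% called). Fbxo5, which encodes the APC/C inhibitor EMI1, rose to 12.04 and 12.2 TPM with GAFCP, against 7.58, 7.06, 6.35 and 7.54 TPM in controls (log2 change 0.70, limma adjusted p = 3.4e-04). Pkmyt1 and Wee1, the kinases that put the inhibitory phosphates on CDK1, rose by 0.62 and 0.32 on the log2 scale, and Ensa, an inhibitor of the phosphatase PP2A, changed by -0.16. Of 15 genes for APC/C subunits and its activator Fzr1, 1 was higher (Fzr1, log2 change 0.22) and 6 lower, with a median log2 change of -0.14 (46.7% called), among them Anapc2 (-0.42), Cdc16 (-0.30), Anapc4 (-0.31) and Anapc5 (-0.21). Of 8 condensin genes, which compact chromosomes, Ncapg2 (log2 change 0.48) and Ncapg (0.29) were higher and none was called lower (25.0% called). This count depended on scaling. With median-of-ratios scaling 7 of the 8 were called higher, and with quantile normalization 6 were. Over all genes tested 25.2% and 21.9% were then higher. Smc4 and Ncapd2 stand in this list and among the other G2/M genes.

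Of 15 regulators of G2/M transcription 4 were higher and 4 lower (53.3% called, where 47.5% of all genes tested were called). Mybl2, which encodes B-MYB, the partner of MuvB that turns on these genes, had 13.7 and 13.05 TPM with GAFCP, against 9.17, 8.15, 8.73 and 8.19 TPM in controls (log2 change 0.59, limma adjusted p = 3.8e-04). Foxm1, which follows it on mitotic promoters, had 30.6 and 32.6 TPM with GAFCP, against 24.9, 26.5, 23.3 and 24.3 TPM in controls (log2 change 0.34, limma adjusted p = 0.00309). Nfyb, a subunit of the CCAAT-binding factor, and Lin54, the MuvB subunit that binds TTTGAA, had log2 changes of 0.45 and 0.48. The 4 called lower were Nfya and Nfyc, the other subunits of the CCAAT-binding factor (-0.33 and -0.27), Rbbp4, a MuvB subunit (-0.24), and Rbl2, the pocket protein p130 (-0.31). Of 7 CDK inhibitor genes 6 were tested, with 3 higher and 2 lower (83.3% of those tested, where 47.5% of all genes tested were called). Cdkn1a, which encodes p21, had 92.5 and 94.4 TPM with GAFCP, against 25.2, 29.4, 24.3 and 24.5 TPM in controls (log2 change 1.82 ± 0.08, SE, limma adjusted p = 1.2e-06), a larger change than that of any of the 36 genes. Cdkn2b and Cdkn2a changed by -0.89 and -0.56, and Cdkn2d rose by 0.48.

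**Figure D4:**
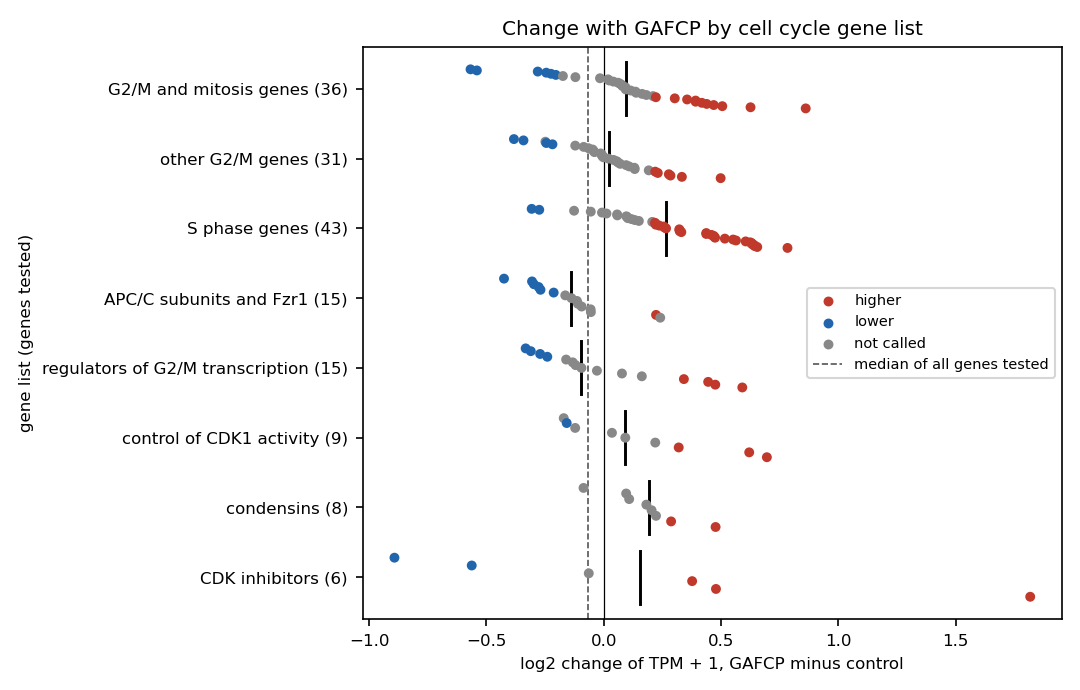
Log2 change of TPM + 1 (GAFCP minus control) of each tested gene in the G2 and mitosis list and 7 other cell cycle lists. Red marks genes called higher, blue called lower and grey not called, black bars are list medians and the dashed line is the median of all genes tested. The S phase median lies at 0.27 and that of the 36 G2 and mitosis genes at 0.09, and Cdkn1a is the point at 1.82.

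Marker transcripts of several cell types differed between groups. For comparison with the counts below, 19.0% of all genes tested were called higher and 28.5% lower. In bulk RNA fewer cells of a type and less RNA per cell cannot be told apart. The tumor label was met by keratins, with Krt8, Krt18, Krt19 and Krt7 between 493.3 and 1718 TPM in the GAFCP libraries and between 710.3 and 2401 TPM in controls, while Epcam was at 1.68 and 1.39 TPM there, against a mean of 12.8 TPM in controls. Summed TPM of 6 epithelial markers was 5072 and 5101 with GAFCP, against 6660 to 7034 in controls. Of the 6 markers 4 were called lower, while Krt18 and Cdh1 were not called. Summed TPM of 13 macrophage and monocyte markers was 5690 and 5615 with GAFCP, against 1311 to 1409 in controls, with 12 of 13 called higher and Cx3cr1 not called. Apoe and Lyz2 held most of this sum, with GAFCP means of 2780 and 1357 TPM and control means of 557.2 and 411.6 TPM. Summed TPM of 10 pan-leukocyte markers, all called higher, was 333.9 and 345.7 with GAFCP, against 118.3 to 138.1 in controls. Of 12 T and NK cell markers 10 are in the table and 7 were tested, all called higher, with sums of 35.8 and 32.3 TPM with GAFCP, against 5.01 to 7.399 TPM in controls and with Ncr1 listed at 0 in both GAFCP libraries. Of 8 fibroblast markers 6 were called higher, with sums of 309.2 and 309.9 TPM with GAFCP, against 188.4 to 209.1 TPM in controls. The part of these cells in the results on the 36 genes was not tested.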

How the data were processed

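Per the labels' protocols, RNA of the sorted cells was extracted with a micro-scale column kit and a company did the sequencing. The authors deposited 1 table of TPM values, for which the submitters' processing notes name Salmon and mm10. The sources used here give neither the Salmon version nor the transcript annotation. TPM keeps no depth, so depth is unknown and the error of each value comes from the replicate libraries. Titles gave the groups and replicate numbers.

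The test used the 13720 genes that reached 1 TPM in 2 libraries or more, all 36 list genes among them. It was run with limma 3.58.1 (R 4.3.3) on log2(TPM + 1), with empirical Bayes moderation along the mean-variance trend, 4 residual degrees of freedom and Benjamini-Hochberg adjustment over all genes tested. Changes are GAFCP minus control and understate those of genes with low TPM. The test was checked on simulated data, in which the changed genes moved by 1 on the log2 scale in either direction. That is more than any change in the list, so the check does not cover smaller changes. The 36 genes, the 7 comparison lists, the 5 marker lists and the tests were chosen with earlier results of these data known. Up to 4 called genes with the smallest p were named per comparison list. Cdca8, Fzr1, Nfya, Nfyc, Rbbp4, Rbl2 and the gene pairs set in ratios were picked after their values were seen. Positions and promoters come from RefSeq on GRCm38.p6 (the mm10 assembly), with genes matched by symbol.

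The alternatives were pseudocounts of 0.1 and 5, other filters and scalings, a robust variance model, a block for the replicate number, and fewer libraries.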

Additional observations from a re-analysis of the deposited data

Results flagged for a closer look

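Within the 4 control libraries, control library 3 lay far below the others for 3 of the 36 genes, by Dixon's gap ratio at its 95% critical value, where chance marks about 5% of groups. Cenpe was at 7.17 TPM in control library 3 and at 9.55 to 9.85 TPM in the other controls. Cenpf was at 3.73 TPM there and at 5.30 to 5.41 TPM in the other controls. Mki67 was at 12.9 TPM there and at 15.9 to 16.2 TPM in the other controls.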

How the results depend on the processing

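The 11 higher and 6 lower genes of the list kept their direction in every alternative in which they were called again. With median-of-ratios scaling 18 were higher and the list's median log2 change was 0.155, and with quantile normalization 16 were higher and 6 lower. Over all genes quantile normalization gave 3001 higher and 4225 lower (21.9% and 30.8% of those tested), in place of 2606 and 3909. Against control libraries 3 and 4 alone the list's median was 0.153 and that of all genes -0.033, in place of 0.093 and -0.067. With 1 library left out at a time the median of all genes ran from -0.090 to -0.050. Leaving out 1 library at a time gave 9 to 13 higher and 4 to 7 lower, with a median of 0.0758 to 0.128. Over all genes it gave 1715 to 2610 higher and 2514 to 4641 lower, lowest without GAFCP library 2 (1715 higher) and without GAFCP library 1 (2514 lower), where the remaining GAFCP library is assumed to vary as the controls do. The replicate number as a block gave 10 higher and 5 lower in the list, losing Ube2c and Cenpa, and 2128 higher and 3766 lower over all genes. The main fit did not take the numbers as pairs. Same-numbered libraries did not deviate together (correlation across genes of -0.01 and -0.02). With 2 GAFCP libraries the deviations of one mirror those of the other, so these correlations are not separate checks. Without a filter 11 of the list were higher and 5 lower, and Bub1b did not pass (limma adjusted p = 0.0779). Over all genes 2769 were then higher and 3785 lower. At a mean of at least 5 TPM, Ttk, Kif4 and Cenpf were not tested. Since depth is unknown, what it limits cannot be stated.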
